A study of Mus musculus with 4 samples.

Results

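The platelet-derived growth factor (PDGF) family was followed through 4 RNA-seq libraries of mouse embryonic fibroblasts (MEF). Its members are the 4 ligand genes *Pdgfa*, *Pdgfb*, *Pdgfc* and *Pdgfd* and the 2 receptor genes *Pdgfra* and *Pdgfrb*, which were chosen by name and make up 6 of the 25909 genes that could be named in the deposited table. All 6 were in the table, with 20 transcripts between them, and each gene stands for its transcript with the longest gene body. The libraries were *Hmga2*+/+ Ctrl, *Hmga2*+/+ TGFB1, *Hmga2*-/- Ctrl and *Hmga2*-/- TGFB1, with 1 library per condition. Ctrl cells received water, and TGFB1 cells received 10 ng/ml of human recombinant transforming growth factor beta 1 for 24 h, a cytokine that drives fibroblasts towards a contractile, matrix-producing state. *Hmga2* encodes an architectural chromatin protein that binds A/T-rich DNA, and both genotypes share everything else that the labels give: the C57BL/6 strain, embryonic day 15.5, immortalization, and a night in 1% fetal calf serum before treatment. The cells came from embryo bodies without head, limbs, tail and viscera. The genotype field of the knockout libraries reads Hmga-/- while their titles read *Hmga2*-/-. By the study's methods, primary cells were isolated from embryos and then immortalized with a simian virus. The number of embryos or lines behind each library is not given in the sources used here. Genotype therefore cannot be told apart from the embryo or immortalized line that the cells came from.

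PDGF ligands are secreted dimers that bind a pair of receptor tyrosine kinases on mesenchymal cells. PDGF-A and PDGF-C dimers act mainly on PDGFRA, PDGF-D dimers on PDGFRB, and PDGF-B dimers on both. PDGF-A and PDGF-B are cut by furin-like convertases inside the cell, whereas PDGF-C and PDGF-D leave the cell in a latent form and are activated outside it by proteases of the plasminogen activator kind. Bound receptors recruit PI3 kinase, phospholipase C gamma, RAS regulators and phosphatases, and the pathway is known for driving fibroblast growth and migration and for the recruitment of the mural cells that coat vessels.

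Depth was between 56140000 and 57300000 mapped reads per library. *Hmga2* was at 14.8 RPKM in *Hmga2*+/+ Ctrl and 40.7 RPKM in *Hmga2*+/+ TGFB1, and no read was found in either *Hmga2*-/- library, which is at least 1191-fold lower under Ctrl and at least 3298-fold lower under TGFB1 against a floor of 3 reads per library. Of 6 known TGFB1 targets, 5 were higher by at least 1.5-fold with TGFB1 in both genotypes, among them *Ccn2* (13.2 and 172.7 RPKM in *Hmga2*+/+ Ctrl and TGFB1, 24.9 and 358.9 RPKM in *Hmga2*-/- Ctrl and TGFB1), *Acta2*, *Skil* and *Smad7*, while *Tgfbi* was lower in both. All 10 fibroblast markers reached 1 RPKM in a library, *Lum* only in *Hmga2*+/+ Ctrl (1.08 RPKM). Their summed levels lay between 2000 and 2394 RPKM, of which *Vim* alone gave between 958 and 1497 RPKM. With TGFB1, 2 of the 10 were at least 1.5-fold higher and 5 lower in each genotype. Over all named genes, 11.7% were higher and 19.3% lower in *Hmga2*+/+ and 12.9% and 18.4% in *Hmga2*-/- MEF. The summed level of other cell types' markers was at most 38.2 RPKM for mural cells (3 of 7 reached 1 RPKM, *Kcnj8* at 0 in all libraries), 8.16 RPKM for endothelial cells (2 of 6, *Cldn5* at 0), 5.66 RPKM for epithelial cells (1 of 6), 4.40 RPKM for neural and glial cells (1 of 5, *Olig1* at 0), 1.68 RPKM for macrophages and blood cells (1 of 5), 0.668 RPKM for megakaryocytes (0 of 4, *Pf4* and *Gp9* at 0) and 0.008 RPKM for skeletal muscle (0 of 4, *Myod1*, *Myog* and *Myf5* at 0).

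Promoter sequence is shown for members with a RefSeq entry that responded unlike each other: *Pdgfc* (strongly higher with TGFB1), *Pdgfra* (lower) and *Pdgfd* (less than 1.5-fold different). The lines give the 250 bases before the RefSeq transcription start in GRCm38.p6, 5′ to 3′ on the strand of the gene, which is the plus strand for all of them. Capitals mark the SMAD-binding element CAGAC or its reverse complement, and in *Pdgfd* also the TATA box TATAAA.
Pdgfc, chr3:81036166-81036415: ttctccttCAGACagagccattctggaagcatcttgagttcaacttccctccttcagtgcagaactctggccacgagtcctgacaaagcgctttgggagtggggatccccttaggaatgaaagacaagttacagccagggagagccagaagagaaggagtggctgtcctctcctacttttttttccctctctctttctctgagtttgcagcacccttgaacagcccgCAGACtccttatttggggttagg
Pdgfra, chr5:75152001-75152250: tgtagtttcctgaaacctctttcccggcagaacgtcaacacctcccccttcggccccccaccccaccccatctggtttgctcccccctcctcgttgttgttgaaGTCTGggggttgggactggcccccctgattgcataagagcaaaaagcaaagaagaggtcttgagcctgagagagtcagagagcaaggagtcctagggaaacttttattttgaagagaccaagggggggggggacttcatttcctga
Pdgfd, chr9:6168236-6168485: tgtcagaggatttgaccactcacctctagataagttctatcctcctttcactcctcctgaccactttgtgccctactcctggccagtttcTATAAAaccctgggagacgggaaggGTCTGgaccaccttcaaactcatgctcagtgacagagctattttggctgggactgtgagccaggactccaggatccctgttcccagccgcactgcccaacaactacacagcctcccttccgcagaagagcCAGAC

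The SMAD-binding element was present in all 3 of these windows, and its part in the responses was not tested. The element had 2 matches in *Pdgfc*, at 242 and 23 bases before the start, 1 in *Pdgfra*, at 146 bases, and 2 in *Pdgfd*, at 135 and 5 bases. These distances are to the RefSeq start. The transcript whose level is given below starts at the same base for *Pdgfc*, but 40 bases downstream for *Pdgfra* and 126 bases downstream for *Pdgfd*. Of 32817 RefSeq promoter windows of the same length, 42.2% held this element on either strand. The TATA box of *Pdgfd* lay 160 bases before the start, and 12.4% of windows held one. *Pdgfra* also had an E-box, CANNTG, 182 bases before the start, as 66.2% of windows did. The 250 bases before the *Pdgfa* start at 138994944 held no SMAD-binding element and 2 GC boxes, GGGCGG, at 93 and 86 bases, where 32.7% of windows held any. None of the windows of *Pdgfa*, *Pdgfc*, *Pdgfd* and *Pdgfra* held the AP-1 site TGAGTCA (4.46% of all windows), the CCAAT box (33.8%) or AATATT, an A/T run (6.17%). The *Pdgfa* window was the richest of them in G and C, at 72.4%, against 50.8% for *Pdgfc*, 53.6% for *Pdgfd*, 54.4% for *Pdgfra* and a median of 52.4% over all windows. These motifs were searched on both strands, no matches overlapped, and a match describes letters, not binding.

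RPKM divides the reads counted for a transcript by its length in kilobases and by the depth of its library, to put genes and libraries on a shared scale. Shifts between libraries remain: the median ratio of genes to their geometric mean over the libraries was 1.04 in *Hmga2*+/+ Ctrl and 0.972 in *Hmga2*+/+ TGFB1. Levels also depend on the transcript that stands for a gene. Under Ctrl, by the transcripts with the longest gene body, *Pdgfrb* was the most abundant member in both genotypes, followed by *Pdgfra*, *Pdgfd*, *Pdgfc*, *Pdgfa* and *Pdgfb*. With TGFB1 the order changed in the same way in both genotypes: *Pdgfrb* stayed first, *Pdgfc* moved from the fourth to the second place, and *Pdgfra*, *Pdgfd*, *Pdgfa* and *Pdgfb* followed. No neighbours in these orders, 20 pairs in all, had overlapping counting intervals, that is 95% intervals for the error of counting reads alone. With the transcript of highest mean RPKM for each receptor, *Pdgfra* came before *Pdgfrb* in *Hmga2*-/- Ctrl. With 1 library per condition no spread between replicates could be set against the orders. The same holds for each ratio below: its interval is an exact conditional binomial interval that compares 2 libraries, not 2 conditions, and no p-value is given. A gene counts as higher or lower from a ratio of 1.5-fold on.

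**Figure D1:**
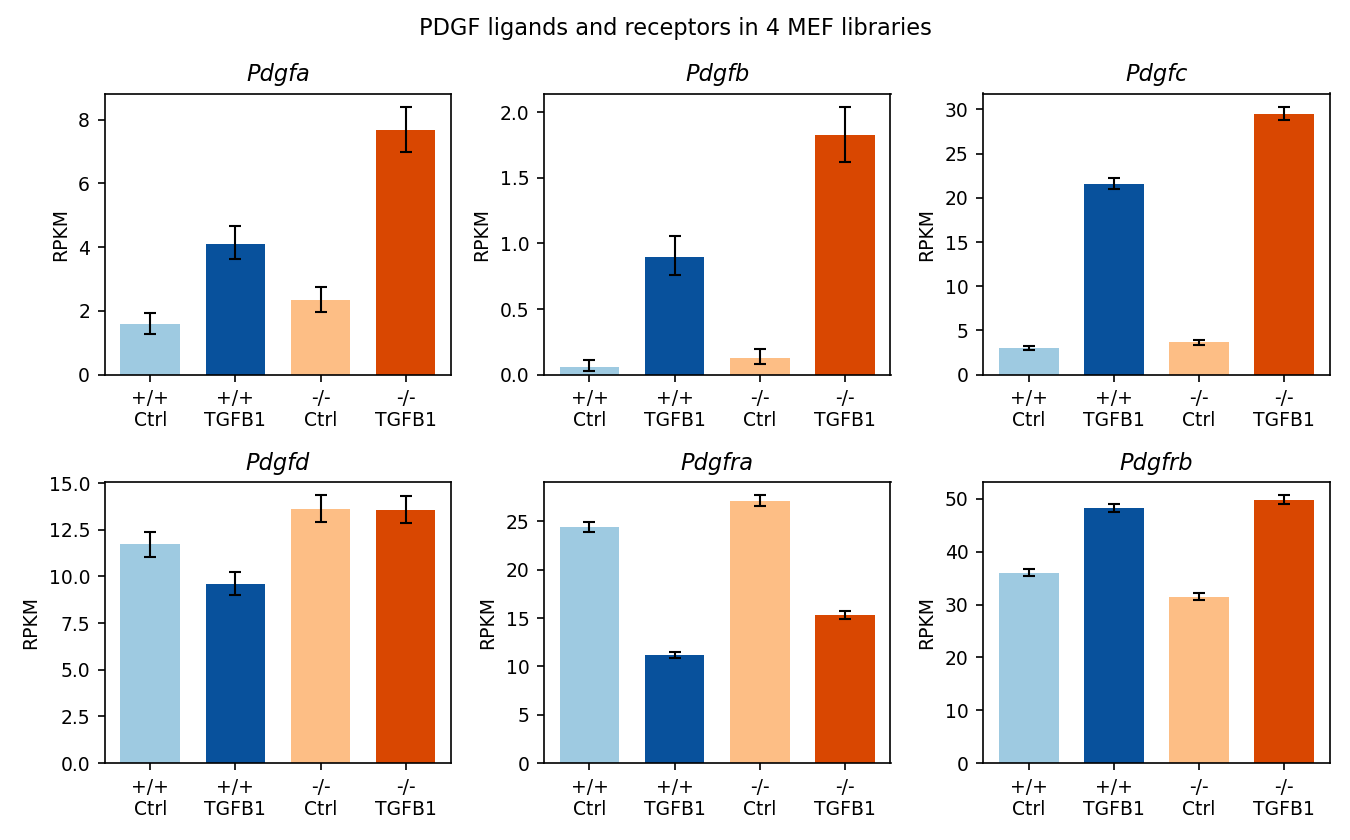
Level of each PDGF ligand and receptor gene in RPKM (vertical axes, linear and each from 0) in the 4 libraries, with bars for the value and error bars for the 95% exact Poisson counting interval. *Pdgfc* goes from 3.03 to 21.6 RPKM in *Hmga2*+/+ MEF with TGFB1 and *Pdgfra* from 24.4 to 11.2 RPKM, while the scale of *Pdgfb* ends near 2 RPKM.

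Treatment with TGFB1 was compared with water within each genotype. In *Hmga2*+/+ MEF, 3 of the 6 members were higher with TGFB1, all of them ligands (*Pdgfa*, *Pdgfb* and *Pdgfc*), and 1 was lower, the receptor *Pdgfra*. Among all named genes 11.7% were higher and 19.3% lower by the same fold. In *Hmga2*-/- MEF the same 3 ligands and in addition *Pdgfrb* were higher, 4 of 6, and *Pdgfra* was again lower, where 12.9% of all named genes were higher and 18.4% lower. The median log2 ratio of the members was 0.90 in *Hmga2*+/+ and 1.19 in *Hmga2*-/- MEF, beside 0 in both over all named genes. Genes at 0 RPKM in both libraries enter the latter median with a log2 ratio of 0. The members are 6 genes chosen for what they encode, but with earlier results of these data known. Of them, 5 had a mean of at least 1 RPKM over the libraries, *Pdgfb* being the exception. Of these 5, 2 were higher and 1 lower in *Hmga2*+/+ MEF, and 3 were higher and 1 lower in *Hmga2*-/- MEF. Their median log2 ratios were 0.42 and 0.66. Among the 10788 genes that reached a mean of 1 RPKM, 11.6% were higher and 15.9% lower with TGFB1 in *Hmga2*+/+ MEF, and 13.4% and 14.2% in *Hmga2*-/- MEF. The median log2 ratios of those genes were -0.04 and 0.02.

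*Pdgfc*, which encodes a latent ligand of PDGFRA, had the widest range of RPKM among the ligands. It lies on the plus strand of chromosome 3 (mm10, chr3:81036416-81214031, UCSC transcript uc008pok.1). It was at 3.03 RPKM in *Hmga2*+/+ Ctrl, 21.6 RPKM in *Hmga2*+/+ TGFB1, 3.64 RPKM in *Hmga2*-/- Ctrl and 29.5 RPKM in *Hmga2*-/- TGFB1, from 605, 4404, 734 and 5984 reads. Both TGFB1 libraries were far above both Ctrl libraries. The ratio of TGFB1 to Ctrl was 7.13 (95% counting interval 6.55 to 7.78) in *Hmga2*+/+ and 8.11 (7.51 to 8.76) in *Hmga2*-/- MEF. Among the 10788 genes with a mean of at least 1 RPKM, 99.6% had a smaller log2 ratio than *Pdgfc* in each genotype. A transcript that ends earlier, at 81210770, had lower levels but the same pattern, with 1.43, 10.5, 1.76 and 15.4 RPKM in the same order of libraries.

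*Pdgfb* encodes the ligand that binds both receptors and is best known from platelets and endothelial cells. It was the least abundant member in every library. From chromosome 15, minus strand (chr15:79995876-80014808, UCSC transcript uc007wuz.1), it gave 10 reads in *Hmga2*+/+ Ctrl, 151 in *Hmga2*+/+ TGFB1, 21 in *Hmga2*-/- Ctrl and 304 in *Hmga2*-/- TGFB1, which are 0.061, 0.900, 0.127 and 1.82 RPKM. The Ctrl libraries thus held few reads and the TGFB1 libraries many more. Its ratio of TGFB1 to Ctrl was the largest of the members, 14.8 in *Hmga2*+/+ and 14.4 in *Hmga2*-/- MEF, with wide counting intervals of 7.83 to 31.5 and 9.25 to 23.6. A pseudocount of 1 RPKM brought its log2 ratios from 3.88 to 0.84 in *Hmga2*+/+ and from 3.84 to 1.32 in *Hmga2*-/- MEF, still above 1.5-fold. The shorter transcript of *Pdgfb*, from 80002391, had 1, 71, 6 and 112 reads, again with both TGFB1 libraries above both Ctrl libraries. Megakaryocyte markers were at or near 0, as given above, while the summed endothelial markers went from 3.89 to 4.86 RPKM with TGFB1 in *Hmga2*+/+ against 7.12 and 8.16 RPKM without and with TGFB1 in *Hmga2*-/- MEF. Within that sum *Kdr* was higher with TGFB1, going from 1.11 to 4.46 RPKM in *Hmga2*+/+ with 1.46 and 7.39 RPKM in the *Hmga2*-/- Ctrl and TGFB1 libraries, and *Tek* was lower, going from 2.75 to 0.330 RPKM in *Hmga2*+/+ with 5.65 and 0.686 RPKM in the *Hmga2*-/- libraries. *Cdh5*, *Pecam1* and *Emcn* reached at most 0.048, 0.030 and 0.012 RPKM. The part of these cells in the level of *Pdgfb* was not tested. In bulk RNA, a change in the number of cells that express a gene and a change in its RNA per cell cannot be told apart.

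*Pdgfa*, on the minus strand of chromosome 5 (chr5:138976972-138994953, UCSC transcript uc009afx.2), encodes a ligand of PDGFRA. It was at 1.58 RPKM in *Hmga2*+/+ Ctrl, 4.11 RPKM in *Hmga2*+/+ TGFB1, 2.34 RPKM in *Hmga2*-/- Ctrl and 7.67 RPKM in *Hmga2*-/- TGFB1, from 95, 253, 142 and 469 reads. The *Hmga2*-/- TGFB1 library stood highest and the *Hmga2*+/+ Ctrl library lowest. The ratio of TGFB1 to Ctrl was 2.61 (2.05 to 3.34) in *Hmga2*+/+ and 3.28 (2.72 to 3.99) in *Hmga2*-/- MEF. Its other transcript has the same ends and ratios of 2.60 and 3.15.

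*Pdgfd* encodes the latent ligand of PDGFRB and lies on the plus strand of chromosome 9 (chr9:6168612-6377519, UCSC transcript uc009oby.1). It was at 11.7 RPKM in *Hmga2*+/+ Ctrl, 9.60 RPKM in *Hmga2*+/+ TGFB1, and 13.6 RPKM in each of the *Hmga2*-/- libraries, from 1172, 980, 1372 and 1378 reads. It was the only ligand that was not higher with TGFB1 by 1.5-fold in either genotype. The ratio of TGFB1 to Ctrl was 0.819 (0.752 to 0.893) in *Hmga2*+/+ MEF, below 1 beyond counting error, and 0.999 (0.926 to 1.08) in *Hmga2*-/- MEF. An entry of 1 exon that counts as *Pdgfd* by position, chr9:6262733-6269846, overlaps none of its exons and lies between the exons that end at 6168918 and start at 6288472. GENCODE gives *Ddi1*, on the other strand, the same span, and the deposited entry for *Ddi1*, which covers only chr9:6265028-6266547 of it, had 0 reads in every library. This intronic entry held 127, 102, 211 and 101 reads in the usual order of libraries, so the *Hmga2*-/- Ctrl library was the highest, and its ratio of TGFB1 to Ctrl was 0.475 in *Hmga2*-/- MEF, unlike that of the spliced transcripts. It has the longest exon length of the *Pdgfd* entries, and where it stands for the gene, *Pdgfd* counts as lower with TGFB1 in *Hmga2*-/- MEF.

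*Pdgfra*, on the plus strand of chromosome 5 (chr5:75152291-75198204, UCSC transcript uc008xuc.1), encodes the receptor for PDGF-A and PDGF-C and marks mesenchymal progenitors and fibroblasts. It was at 24.4 RPKM in *Hmga2*+/+ Ctrl, 11.2 RPKM in *Hmga2*+/+ TGFB1, 27.1 RPKM in *Hmga2*-/- Ctrl and 15.3 RPKM in *Hmga2*-/- TGFB1, from 8924, 4172, 9996 and 5686 reads. Both TGFB1 libraries were below both Ctrl libraries. The ratio of TGFB1 to Ctrl was 0.458 (0.441 to 0.475) in *Hmga2*+/+ and 0.565 (0.547 to 0.584) in *Hmga2*-/- MEF. All 6 *Pdgfra* transcripts in the table, which share reads, had ratios between 0.458 and 0.463 in *Hmga2*+/+ and between 0.549 and 0.565 in *Hmga2*-/- MEF. Their levels differed more: in *Hmga2*+/+ Ctrl they lay between 21.6 and 36.8 RPKM, and the highest was the transcript with the shortest exon length, 1605 bases, which ends at 75175150. Among genes with a mean of at least 1 RPKM, 4.68% had a smaller log2 ratio than *Pdgfra* in *Hmga2*+/+ and 8.70% in *Hmga2*-/- MEF. A microRNA gene inside the locus on the same strand, *Mir7025*, had 10, 2, 11 and 10 reads and was not counted as *Pdgfra*.

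*Pdgfrb* encodes the receptor for PDGF-B and PDGF-D and marks mural cells as well as fibroblasts. It lies on the plus strand of chromosome 18 (chr18:61045150-61085067, UCSC transcript uc008fbl.2). It was at 36.1 RPKM in *Hmga2*+/+ Ctrl, 48.3 RPKM in *Hmga2*+/+ TGFB1, 31.5 RPKM in *Hmga2*-/- Ctrl and 49.9 RPKM in *Hmga2*-/- TGFB1, from 10868, 14864, 9563 and 15242 reads. The TGFB1 libraries lay close together and above both Ctrl libraries. The ratio of TGFB1 to Ctrl was 1.34 (1.31 to 1.37) in *Hmga2*+/+ and 1.58 (1.54 to 1.63) in *Hmga2*-/- MEF, so that it passed 1.5-fold in *Hmga2*-/- MEF and missed it in *Hmga2*+/+ MEF. The summed level of the 7 mural cell markers went from 15.3 to 27.1 RPKM with TGFB1 in *Hmga2*+/+ against 15.2 and 38.2 RPKM without and with TGFB1 in *Hmga2*-/- MEF, mainly through *Cspg4* and *Mcam*, while *Kcnj8* was at 0, and its part in the level of *Pdgfrb* was not tested.

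**Figure D2:**
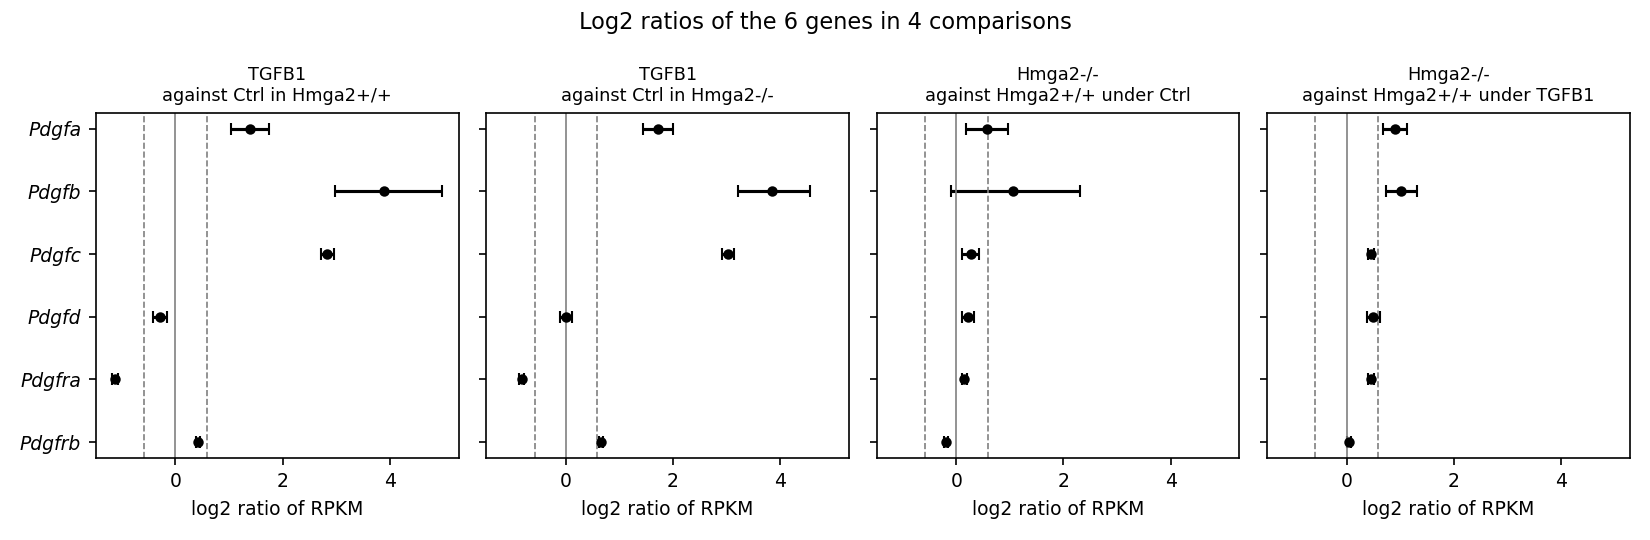
Log2 ratio of RPKM (horizontal axes) of the 6 genes in the 4 comparisons of 2 libraries, with 95% exact counting intervals as bars, a solid line at no difference and dashed lines at 1.5-fold. With TGFB1, *Pdgfa*, *Pdgfb* and *Pdgfc* lie to the right of the dashed lines and *Pdgfra* to the left in both genotypes, and between genotypes no point lies to the left of the dashed lines.

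The make-up of ligand and receptor mRNA shifted with these levels. The 4 ligands summed to 16.4 RPKM in *Hmga2*+/+ Ctrl, 36.2 RPKM in *Hmga2*+/+ TGFB1, 19.7 RPKM in *Hmga2*-/- Ctrl and 52.6 RPKM in *Hmga2*-/- TGFB1. *Pdgfd* made up 71.5% and 69.0% of that sum in the Ctrl libraries of *Hmga2*+/+ and *Hmga2*-/- MEF, and 26.5% and 25.8% in the TGFB1 libraries. *Pdgfc* took the first place instead, with 18.5% in each Ctrl library and 59.7% and 56.1% in the TGFB1 libraries. The sum of the 2 receptors moved less, with 60.5, 59.5, 58.6 and 65.2 RPKM in the same order of libraries. Within it, *Pdgfra* went from 40.4% to 18.8% with TGFB1 in *Hmga2*+/+ and from 46.3% to 23.5% in *Hmga2*-/- MEF. The ratio of *Pdgfra* to *Pdgfrb* RPKM was accordingly 0.677 (0.659 to 0.697) in *Hmga2*+/+ Ctrl, 0.232 (0.224 to 0.240) in *Hmga2*+/+ TGFB1, 0.862 (0.838 to 0.887) in *Hmga2*-/- Ctrl and 0.308 (0.298 to 0.317) in *Hmga2*-/- TGFB1. The direction between treatments did not depend on the transcripts used, but the size did: with the transcript of highest mean RPKM for each receptor, the ratio was 1.23 in *Hmga2*-/- Ctrl, which places *Pdgfra* above *Pdgfrb* there.

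**Figure D3:**
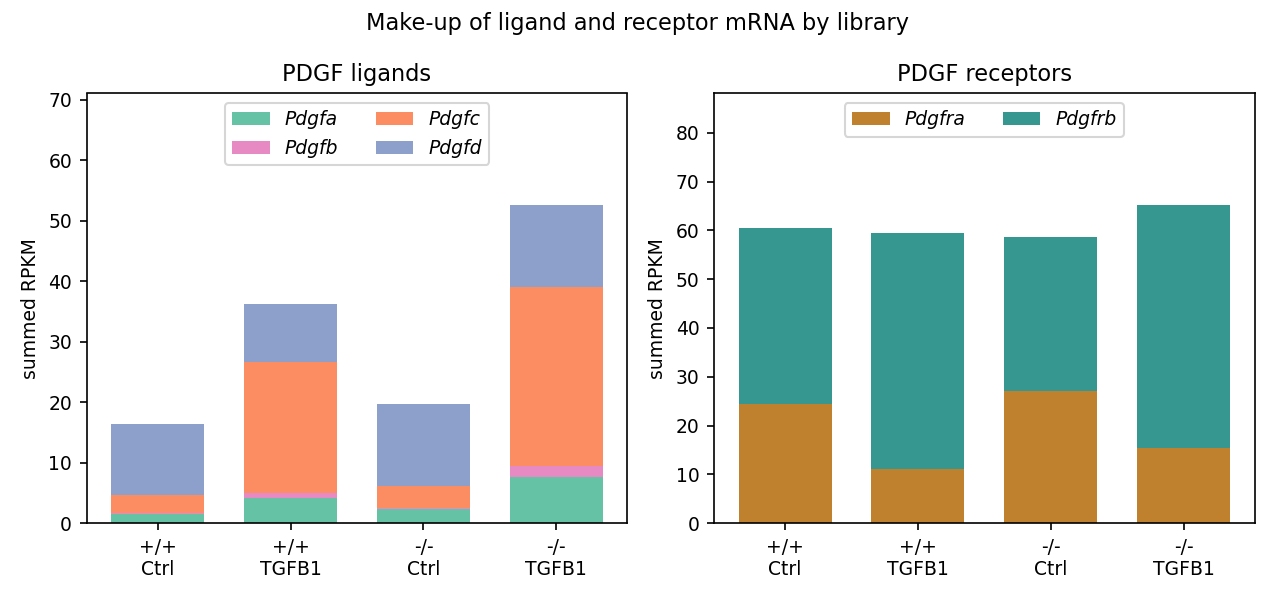
Summed RPKM (vertical axes, from 0) of the 4 ligand genes (left) and the 2 receptor genes (right) in each library, split by gene in colour. The ligand sum is larger in the TGFB1 libraries, where *Pdgfc* makes up 59.7% and 56.1% of it, and the receptor sum stays between 58.6 and 65.2 RPKM.

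*Hmga2*-/- MEF were then compared with *Hmga2*+/+ MEF under the same treatment. The genotypes come from different embryos, so a difference between them cannot be told apart from one between embryos or immortalized lines. Under Ctrl, 1 of the 6 members was higher in *Hmga2*-/- MEF by 1.5-fold and 0 were lower, where 8.47% of all named genes were higher and 8.82% lower. Under TGFB1, 2 were higher and 0 lower, where 9.41% of all named genes were higher and 8.27% lower. The median log2 ratio of the members was 0.24 under Ctrl and 0.48 under TGFB1, beside 0 over all named genes. Genes at 0 RPKM in both libraries enter the latter median with a log2 ratio of 0. Many of the genes past 1.5-fold here are genes with few reads: among the 10788 genes whose mean reached 1 RPKM, the share that was higher was 2.23% under Ctrl and 3.01% under TGFB1, and the share that was lower was 1.93% and 1.96%. The median log2 ratio of those genes was -0.02 under Ctrl and 0.04 under TGFB1. For the 5 members among them it was 0.22 and 0.46, with 0 higher under Ctrl, 1 higher under TGFB1 and 0 lower under either.

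The member that was higher under Ctrl was *Pdgfb*, with a ratio of 2.08 and a counting interval of 0.939 to 4.95 that includes no difference. *Pdgfa* was just short of the limit under Ctrl, with a ratio of 1.48 (1.14 to 1.94), and passed it when libraries were rescaled by their median ratio. Under TGFB1, *Pdgfb* (2.03, 1.66 to 2.48) and *Pdgfa* (1.87, 1.60 to 2.18) were both higher in *Hmga2*-/- MEF. With a pseudocount of 1 RPKM the log2 ratio of *Pdgfb* under TGFB1 went from 1.02 to 0.57, short of 1.5-fold. *Pdgfc* had ratios of 1.20 (1.08 to 1.34) and 1.37 (1.31 to 1.42) under Ctrl and TGFB1, *Pdgfd* of 1.16 (1.07 to 1.26) and 1.41 (1.30 to 1.54), and *Pdgfra* of 1.11 (1.08 to 1.14) and 1.37 (1.32 to 1.43). These ratios lay above 1 beyond counting error and below 1.5-fold. *Pdgfrb* was 0.873 (0.849 to 0.897) under Ctrl and 1.03 (1.01 to 1.06) under TGFB1. Some treatment markers differed between the genotypes too, since 3 of 6 were at least 1.5-fold higher in *Hmga2*-/- MEF under each treatment and 0 lower. All 6 had a mean of at least 1 RPKM, and 2.23% and 3.01% of all such genes were higher under Ctrl and TGFB1. *Acta2* was at 15.9 and 48.2 RPKM in the Ctrl libraries of *Hmga2*+/+ and *Hmga2*-/- MEF and at 58.3 and 165 RPKM in their TGFB1 libraries. *Smad7* and *Skil* differed less under Ctrl, at 6.4 and 6.7 RPKM and at 5.9 and 5.1 RPKM in *Hmga2*+/+ and *Hmga2*-/- MEF. What part such marker differences have in the levels of the PDGF genes was not tested.

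The log2 response to TGFB1 in *Hmga2*-/- MEF minus that in *Hmga2*+/+ MEF was 0.33 for *Pdgfa*, 0.18 for *Pdgfc*, 0.29 for *Pdgfd*, 0.30 for *Pdgfra*, 0.24 for *Pdgfrb* and -0.04 for *Pdgfb*. Positive values mean a larger rise or a smaller fall in *Hmga2*-/- MEF. The counting interval left out 0 for *Pdgfc* (0.02 to 0.35), *Pdgfd* (0.12 to 0.45), *Pdgfra* (0.23 to 0.37) and *Pdgfrb* (0.19 to 0.29), and held 0 for *Pdgfa* (-0.10 to 0.77) and *Pdgfb* (-1.16 to 1.08). Where the intronic entry stands for *Pdgfd*, its value is -0.73. A pseudocount of 0.1 or 1 RPKM brings *Pdgfb* to 0.45 or 0.48. Rescaling the libraries by their median ratio brings *Pdgfc* to 0.13, *Pdgfd* to 0.23, *Pdgfra* to 0.25 and *Pdgfrb* to 0.19. *Pdgfa* and *Pdgfb* come to 0.28 and -0.10. No interval was computed for the rescaled values. That of *Pdgfc* as first given began close to 0, so its difference is shown beyond counting error only with the deposited scaling. As first given, all 6 values lay within the range from the 10th to the 90th percentile of those 10788 genes, which was -0.23 to 0.33 around a median of 0.05. All of them rest on 4 libraries, and the difference between genotypes has no replicate check.

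The genes around the ligands and receptors were described by lists, which were also chosen with earlier results of these data known. Of 10 genes for ligand processing and extracellular partners, 5 were higher and 0 lower with TGFB1 in *Hmga2*+/+ MEF and 4 were higher and 0 lower in *Hmga2*-/- MEF, with median log2 ratios of 0.56 and 0.47. Here and in the lists that follow, counts are to be read against 11.7% higher and 19.3% lower over all named genes in *Hmga2*+/+ and 12.9% and 18.4% in *Hmga2*-/- MEF. *Plat*, the plasminogen activator that activates PDGF-C, was at 9.57 RPKM in *Hmga2*+/+ Ctrl, 16.9 RPKM in *Hmga2*+/+ TGFB1, 7.67 RPKM in *Hmga2*-/- Ctrl and 12.8 RPKM in *Hmga2*-/- TGFB1. *Plau*, which can activate PDGF-D, was at 3.83 and 3.99 RPKM in the *Hmga2*+/+ and at 5.51 and 5.94 RPKM in the *Hmga2*-/- libraries. Of the convertases, *Furin* went from 7.75 to 11.8 RPKM with TGFB1 in *Hmga2*+/+ against 6.78 and 14.4 RPKM without and with TGFB1 in *Hmga2*-/- MEF. *Pcsk6* had ratios of 1.43 and 1.36, short of the limit, and was 1.70-fold and 1.62-fold higher in *Hmga2*-/- than in *Hmga2*+/+ MEF under Ctrl and TGFB1. *Pcsk5* stayed at or below 0.338 RPKM and *St14*, a membrane protease, at or below 0.582 RPKM. The binding proteins and co-receptors *Sparc*, *Lrp1* and *Nrp1* had ratios of TGFB1 to Ctrl of 1.27, 1.05 and 0.811 in *Hmga2*+/+ and of 1.41, 1.06 and 0.825 in *Hmga2*-/- MEF. In *Hmga2*-/- against *Hmga2*+/+ MEF, 2 of the 10 genes were higher and 1 lower under Ctrl, and 3 were higher and 1 lower under TGFB1. Over all named genes, 8.47% were higher and 8.82% lower under Ctrl, and 9.41% and 8.27% under TGFB1.

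Receptor adaptors and effectors all had a mean of at least 1 RPKM. Of 31 genes, 3 were higher and 6 lower with TGFB1 in *Hmga2*+/+ MEF and 4 were higher and 3 lower in *Hmga2*-/- MEF, with medians of -0.02 and 0.08. Among all genes that reached that mean, 11.6% were higher and 15.9% lower in *Hmga2*+/+ MEF and 13.4% and 14.2% in *Hmga2*-/- MEF, so these counts are close to the background. *Rasa1*, the RAS GTPase-activating protein that docks on PDGFRB, was at 24.6 and 67.4 RPKM in *Hmga2*+/+ Ctrl and TGFB1 and at 26.2 and 58.1 RPKM in *Hmga2*-/- Ctrl and TGFB1. The regulatory subunits of PI3 kinase *Pik3r1* and *Pik3r2* were lower with TGFB1, with ratios of 0.511 and 0.458 in *Hmga2*+/+ and of 0.615 and 0.463 in *Hmga2*-/- MEF. The kinase *Mapk3* was lower as well, with ratios of 0.550 and 0.582. The phospholipase *Plcg1* and the docking protein *Gab1* were lower by 1.5-fold in *Hmga2*+/+ MEF, with ratios of 0.582 and 0.615, and short of it in *Hmga2*-/- MEF, with 0.670 and 0.689. Between the genotypes 0 of the 31 genes differed by 1.5-fold under either treatment, which is near the background of 2.23% higher and 1.93% lower under Ctrl and 3.01% and 1.96% under TGFB1.

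Negative regulators of the receptors also all had a mean of at least 1 RPKM. Of 17 genes, 6 were higher and 1 lower in *Hmga2*+/+ MEF and 5 were higher and 1 lower in *Hmga2*-/- MEF, with medians of 0.30 and 0.29, against the same shares of 11.6% higher and 15.9% lower in *Hmga2*+/+ MEF and 13.4% and 14.2% in *Hmga2*-/- MEF over all such genes. *Errfi1*, a feedback inhibitor of receptor tyrosine kinases, went from 10.8 to 34.6 RPKM in *Hmga2*+/+ against 11.6 and 33.9 RPKM without and with TGFB1 in *Hmga2*-/- MEF. The phosphatase *Ptprj* had ratios of 2.31 and 2.60, *Lrig1*, a membrane inhibitor, of 1.77 and 2.76, and *Spred2*, an inhibitor of RAS signalling, of 1.74 and 2.13. The ubiquitin ligase *Cbl* had ratios of 1.61 and 1.27, and the feedback inhibitor *Spry2* was the gene that was lower, with 0.581 and 0.567. Between the genotypes 0 of the 17 genes differed by 1.5-fold, again near the background.

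Genes known to be induced by PDGF or serum in fibroblasts were mostly higher with TGFB1, 18 of 25 in each genotype, while 2 were lower, *Cxcl1* and *Ccnd1*, named here after their values were seen. The medians were 0.95 in *Hmga2*+/+ and 1.02 in *Hmga2*-/- MEF. The hyaluronan synthase gene *Has2* went from 0.353 to 20.3 RPKM in *Hmga2*+/+ against 0.554 and 29.3 RPKM without and with TGFB1 in *Hmga2*-/- MEF. The phosphatase *Dusp6*, a feedback regulator of ERK, had ratios of 5.26 and 4.06, the urokinase receptor *Plaur* of 5.01 and 5.31, and the transcription factors *Egr2*, *Myc* and *Fosl1* of 3.54, 3.73 and 3.58 in *Hmga2*+/+ and of 7.69, 3.56 and 3.80 in *Hmga2*-/- MEF. Many of these genes also respond to other signals, and no PDGF-treated library was analysed here. In *Hmga2*-/- against *Hmga2*+/+ MEF, 8 of the 25 were higher under Ctrl and 7 under TGFB1, and 0 were lower. The shares over all named genes were 8.47% higher and 8.82% lower under Ctrl, and 9.41% and 8.27% under TGFB1. Of the 25, 23 had a mean of at least 1 RPKM, and these held all of the 8 and 7 genes. Among all genes that reached this mean, 2.23% were higher and 1.93% lower under Ctrl, and 3.01% and 1.96% under TGFB1.

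Among 12 relatives in the PDGF and VEGF family, 6 were higher and 2 lower with TGFB1 in *Hmga2*+/+ MEF and 7 were higher and 2 lower in *Hmga2*-/- MEF, with medians of 0.70 and 0.99. Some of these hold few reads, and over the 7 genes whose mean reached 1 RPKM, 4 were higher and 2 lower in both genotypes. Among all genes that reached it, 11.6% were higher and 15.9% lower in *Hmga2*+/+ MEF, and 13.4% and 14.2% in *Hmga2*-/- MEF. The ligands differed in direction: *Vegfa* went from 13.2 to 39.9 RPKM in *Hmga2*+/+ against 10.3 and 44.5 RPKM without and with TGFB1 in *Hmga2*-/- MEF, and *Vegfc* had ratios of 2.26 and 2.51, whereas *Vegfb* went from 104.6 to 53.5 RPKM and from 110.5 to 47.3 RPKM, and *Vegfd* had ratios of 0.280 and 0.225. The receptors *Kdr* and *Flt1* had ratios of 4.01 and 2.59 in *Hmga2*+/+ and of 5.08 and 3.54 in *Hmga2*-/- MEF. Between the genotypes, 1 of the 12 was higher in *Hmga2*-/- MEF and 1 lower under Ctrl, and 3 were higher and 0 lower under TGFB1. Over all named genes the shares were 8.47% and 8.82% under Ctrl, which the counts are near, and 9.41% and 8.27% under TGFB1.

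**Figure D4:**
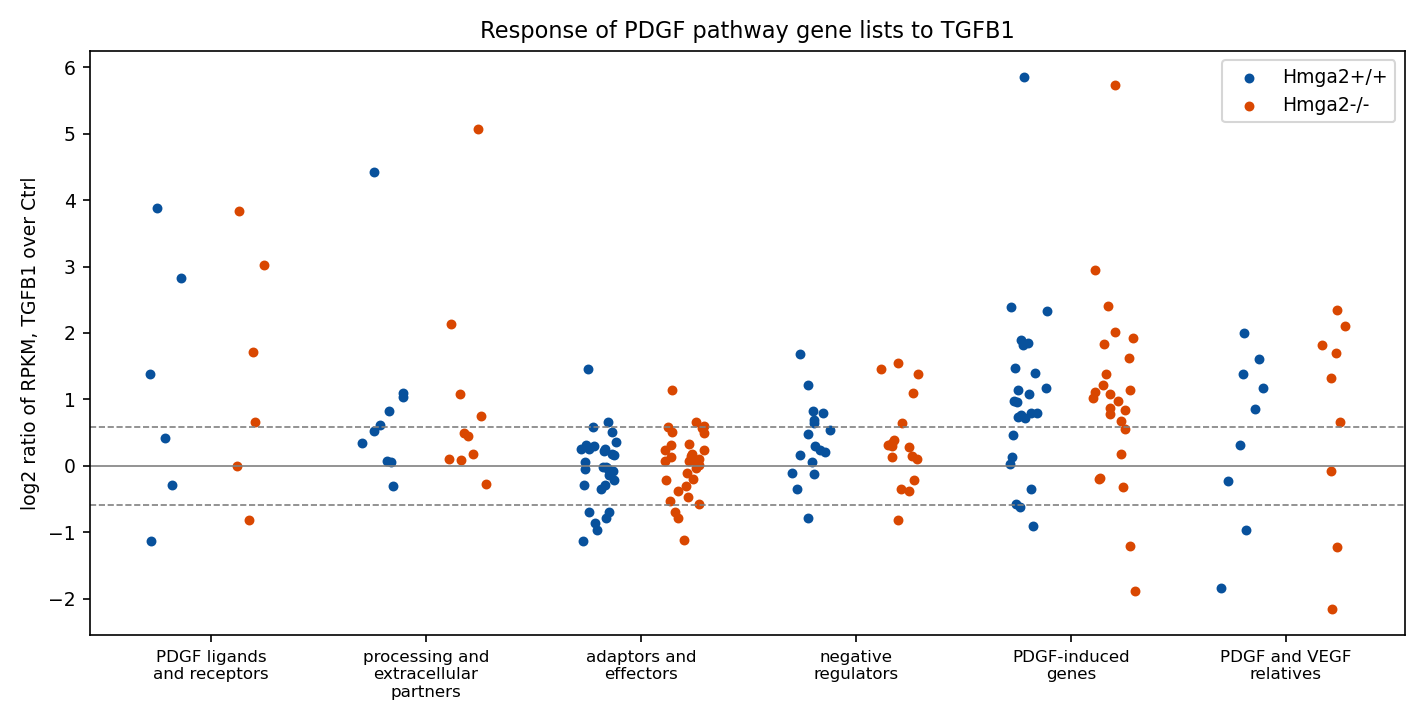
Log2 ratio of RPKM of TGFB1 over Ctrl (vertical axis) for each gene of the 6 ligands and receptors and of the pathway lists, in *Hmga2*+/+ (blue) and *Hmga2*-/- MEF (orange), spread sideways at random, with dashed lines at 1.5-fold. The adaptors lie around 0 and most PDGF-induced genes above the upper dashed line, and 3 of the 12 relatives with less than 0.2 RPKM summed over both libraries are left out.

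Genes most like each member across the 4 libraries were sought among 6797 genes with a mean of at least 5 RPKM, by the smallest Euclidean distance between log2 values centred on their mean. For *Pdgfc* these were *Smoc2* (distance 0.14), with 5.98, 41.8, 7.45 and 53.0 RPKM in the usual order of libraries, *Pmepa1* (0.18) and *Ltbp2* (0.21). For *Pdgfa* they were *Hes1* (0.15), with 4.84, 13.7, 7.30 and 22.1 RPKM, *Wnt5a* (0.18) and *Junb* (0.21). *Pdgfra* was closest to *L3mbtl3* (0.13), with 6.64, 3.45, 7.90 and 4.44 RPKM, *Eif4g3* (0.15) and *Zfp503* (0.16). *Pdgfd* and *Pdgfrb*, whose levels varied less, had closer neighbours, which were *H2-Q7* (0.05), *Dgka* (0.07) and *Wipi1* (0.07) for *Pdgfd* and *Gnb4* (0.04), *Tmem209* (0.05) and *Rabggtb* (0.06) for *Pdgfrb*. Only 4 libraries enter these distances.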

How the data were processed

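Total RNA of immortalized MEF was sequenced by the authors with a stranded kit as single 75-base reads. The reads were trimmed with Trimmomatic, mapped to mm10 with HISAT2 2.1.0 and counted with HOMER, strand-specifically, against the UCSC known gene set. The deposited values are RPKM per transcript. The column header speaks of counting in exons and the study's methods of genes, and the processing notes also list hg19. The authors also deposited each transcript's length in bases. The study speaks of duplicates, and whether they were pooled is not given in the sources used here.

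Of 63759 transcripts, 57708 were named by having at least 50% of their span on 1 gene of GENCODE vM21, strand included. The transcript with the longest gene body stands for a gene. Values of 0 RPKM were set to 0.001 and a ratio of at least 1.5-fold was called, after the study's methods. Reads were derived from RPKM, length and the depth at which low values of transcripts under 600 bases become whole reads (100% within 0.1 read). Intervals are exact at the 95% level, conditional binomial for ratios and Poisson for levels, except for differences of log2 responses, which rest on a normal approximation for reads. Intervals and the 3-read floor cover counting error only. Without replicates no test was run and no count model was used.

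The members and gene lists were chosen with earlier results of these data known. Named genes are the members, *Hmga2*, 6 treatment markers, the genes of the processing list (1 is counted but not reported here by name), up to 6 genes of each other list past 1.5-fold with a mean of at least 1 RPKM, and the 3 genes most like each member. Promoter sequences are from RefSeq (GRCm38.p6), with entries for 4 of the 6 members. Alternatives changed the pseudocount (0.1 or 1 RPKM), library scaling, transcript choice, fold (2) and a filter on low values. The steps were tested on simulated data. Python 3.11.15, numpy 2.4.6, pandas 2.3.3, scipy 1.17.1 and matplotlib 3.10.9 were used.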

Additional observations from a re-analysis of the deposited data

Results flagged for a closer look

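By the deposited values, *Yes1*, which encodes a SRC-family kinase that binds activated PDGF receptors, responded in opposite directions in the 2 genotypes, each beyond counting error. It was at 11.4 RPKM in *Hmga2*+/+ Ctrl and 10.4 RPKM in *Hmga2*+/+ TGFB1, and at 10.5 RPKM in *Hmga2*-/- Ctrl and 11.6 RPKM in *Hmga2*-/- TGFB1. The log2 response in *Hmga2*-/- minus that in *Hmga2*+/+ MEF was 0.288 (counting interval 0.18 to 0.39). Both responses are well short of 1.5-fold, and this was the only one of 107 named genes looked at that met the criterion. With libraries rescaled by their median ratio the log2 responses were -0.05 and 0.19. The rescaled value in *Hmga2*+/+ MEF is closer to no difference than the counting interval as first given, -0.22 to -0.06. No interval was computed after rescaling, so a fall in *Hmga2*+/+ MEF beyond counting error is shown only with the deposited scaling. The difference was not tested, since each condition has 1 library.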

How the results depend on the processing

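Of 368 values under alternatives, 304 stayed within their limits (the counting interval, or 1.5 times a count) and 64 moved. No log2 ratio past 1.5-fold changed sign. Of the values short of it, 6 took the other sign: *Pdgfd* with the longest exon length, between genotypes under TGFB1 and in the difference of responses (both given below), *Pdgfd* with TGFB1 in *Hmga2*-/- (0.03 rescaled and 0.0055 with the transcript of highest mean RPKM, from -0.0021), and the *Pdgfb* difference of responses (0.45 and 0.48 with pseudocounts of 0.1 and 1 RPKM). No paired analysis was possible because each condition has 1 library, so the groups share fewer than 2 replicate numbers. With 1 library per condition no replicate could be left out, and depth limits *Pdgfb* most, with 10 and 21 reads under Ctrl.

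A pseudocount shrinks ratios of low genes by construction. With 1 RPKM the log2 ratios of TGFB1 to Ctrl in *Hmga2*+/+ and *Hmga2*-/- MEF were 0.99 and 1.38 for *Pdgfa*, 0.84 and 1.32 for *Pdgfb* and 2.49 and 2.72 for *Pdgfc*, and -1.06 for *Pdgfra* in *Hmga2*+/+. *Pdgfb* under TGFB1 between genotypes was 0.57, short of 1.5-fold. With 0.1 RPKM *Pdgfb* was 2.63 and 3.08. Members higher in *Hmga2*-/- against *Hmga2*+/+ under Ctrl then numbered 0 with either pseudocount, *Pdgfb* being at 0.50 and 0.09, and 1 under TGFB1 with 1 RPKM.

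The transcript with the longest exon length makes the intronic entry stand for *Pdgfd*, whose log2 ratios became -1.07 for TGFB1 in *Hmga2*-/-, 0.72 and -0.0058 between genotypes under Ctrl and TGFB1, and -0.73 for the difference of responses. Members lower with TGFB1 in *Hmga2*-/- then numbered 2, and members higher between genotypes under Ctrl 2. With the transcript of highest mean RPKM, *Pdgfra* was 0.22 between genotypes under Ctrl, and the *Pdgfra* to *Pdgfrb* ratio was 0.921, 0.316, 1.23 and 0.423 in *Hmga2*+/+ Ctrl, *Hmga2*+/+ TGFB1, *Hmga2*-/- Ctrl and *Hmga2*-/- TGFB1. With the mean over transcripts it was 0.731, 0.251, 0.956 and 0.335.

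Rescaled libraries gave log2 ratios of -1.03 for *Pdgfra* and 0.51 for *Pdgfrb* with TGFB1 in *Hmga2*+/+, a difference of responses of 0.19 for *Pdgfrb*, 2 members higher between genotypes under Ctrl (*Pdgfa* at 0.60) and 1 PDGF-induced gene lower with TGFB1 in *Hmga2*+/+. At 2-fold, members lower with TGFB1 in *Hmga2*-/- numbered 0 and members higher between genotypes under TGFB1 1, and 7.50% of all named genes were higher with TGFB1 in *Hmga2*+/+ and 8.34% in *Hmga2*-/-.

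With a pseudocount of 0.1 RPKM, 7.11% of all named genes were higher and 12.2% lower with TGFB1 in *Hmga2*+/+, 8.04% and 11.1% in *Hmga2*-/-, 2.74% and 3.0% between genotypes under Ctrl and 3.26% and 2.67% under TGFB1. With 1 RPKM these were 4.21% and 5.30%, 4.90% and 4.75%, 0.722% and 0.714%, and 0.919% and 0.556%. With a mean of at least 1 RPKM, fewer genes being counted, 2.23% and 1.93% were higher and lower between genotypes under Ctrl and 3.01% and 1.96% under TGFB1. Under this filter 3 processing genes were higher with TGFB1 in *Hmga2*+/+, 4 relatives were higher in *Hmga2*-/-, and between genotypes 0 relatives were higher and 0 lower under Ctrl, 1 higher under TGFB1, and 0 processing genes lower under either.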
